A study of Homo sapiens with 6 samples.

Results

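Collagens and laminins are the main structural proteins of the extracellular matrix, and the genes examined here are the protein-coding genes whose GENCODE release 44 symbol has the form COL, digits, A, digits, or LAMA, LAMB or LAMC followed by a digit. There were 56 such genes, 44 collagens and 12 laminins, among the 63677 genes listed in the counts. Summed over the 6 samples, 50 of them exceeded 10 counts and were tested (38 collagens and all 12 laminins), among 21729 genes tested in all. The filter was set on the sum over both groups, so it did not look at the direction of a change. RNA was sequenced from UWB1.289, an established human ovarian carcinoma cell line that lacks functional BRCA1, and the labels give its genotype as WT. The cells received 4 µM Olaparib, an inhibitor of the DNA repair enzyme PARP, for 24 h (3 samples), or the solvent DMSO for the same time (3 samples). All 6 samples are this single cell line, grown in plates with serum and growth supplements, with a set of 3 dishes per condition. The design text of the series names a dose of 10 µM, whereas the sample labels and the treatment protocol give 4 µM. The methods of the study call the 3 replicates independent, but neither they nor the labels say how the cultures were separated, so the p-values measure the spread between these samples, which may be technical.

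A collagen is a trimer of alpha chains that wind around each other over long Gly-X-Y repeats. Fibril-forming collagens (types I, III and V) make up interstitial fibrils, type IV collagen forms the network of basement membranes, type VI makes beaded microfibrils, and the FACIT collagens sit on the surface of fibrils. A laminin is a trimer of an alpha, a beta and a gamma chain that is found in basement membranes and bound by receptors such as integrins and dystroglycan. Its name lists the chains, so that laminin-332 holds LAMA3 and LAMB3, and laminin-511 holds LAMA5, LAMB1 and LAMC1. Epithelial cells are known to secrete laminin-332 and laminin-511, while types I, III and V collagen are mainly products of fibroblasts.

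The transcripts of these genes made up 0.582% to 0.606% of each library. Total counts per sample lay between 35360458 and 39640775, and mitochondrial genes took 5.68% to 6.11%. Of the 10 markers of epithelial and ovarian carcinoma cells, 9 passed the filter. KRT7, KRT8 and KRT18 had at least 132560 normalized counts in each sample, PAX8 had 11075 to 12518, and WT1 was at 0 to 2 counts per sample. Among 7 fibroblast markers, LUM was at 0 counts in all 6 samples and PDGFRB and DCN had at most 3 counts in any sample, while THY1 had at least 398 normalized counts in each. The summed level of the fibroblast markers was 452 to 540 normalized counts with Olaparib and 417 to 479 after DMSO. Of 4 endothelial markers, PECAM1 was at 0, CDH5 had 1494 to 1680 normalized counts, and VWF rose from 39.7 to 43.6 after DMSO to 63.8 to 69.7 after Olaparib (log2 fold change 0.68, SE 0.16, edgeR adjusted p = 0.0106, and 0.071 with DESeq2). The endothelial sum was 1659 to 1706 normalized counts with Olaparib and 1688 to 1804 after DMSO. For 3 blood cell markers it was 114 to 135 and 93.2 to 116, with CD3E at 0 to 2 counts in every sample and PTPRC at 52.0 to 76.9 normalized counts. CD14 had 44.5 to 56.4 after Olaparib and 31.3 to 41.2 after DMSO, without overlap (log2 fold change 0.42, edgeR adjusted p = 0.26). The endothelial marker KDR had 93.1 to 104 and 77.4 to 80.6, also without overlap (log2 fold change 0.30, edgeR adjusted p = 0.237). CDH5 was lower without overlap, at 1494 to 1550 after Olaparib and 1567 to 1680 after DMSO. Its log2 fold change was -0.07 (edgeR adjusted p = 0.442). Among the epithelial markers, CDH1, KRT18 and PAX8 were higher and EPCAM was lower without overlap. Over all genes tested, 19.3% did not overlap in either direction. PAX8 was the only epithelial marker past the test (log2 fold change 0.10, edgeR adjusted p = 0.0399), a call lost in 5 of the 6 fits that left out a sample. The part of these markers in the results below was not tested. In such bulk samples, fewer cells that express a gene and less RNA per cell cannot be told apart.

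Olaparib raised 5 and lowered 2 of the 50 tested genes when tested by the quasi-likelihood method of edgeR, at an adjusted p under 0.05 (Benjamini-Hochberg, over all genes tested). The rises were in COL6A1, COL6A2, COL12A1, COL22A1 and LAMA3, and the falls were in COL8A1 and LAMA5. Together these 7 genes were 14.0% of the 50, beside 3.36% of all genes tested. By direction, 10.0% of the collagens and laminins rose, beside 2.15% of all genes, and 4.0% fell, beside 1.21%. All 7 changes were small. A fold of more than 1.2 in either direction, the condition in the results of the study, was met by 4 of them, COL6A1, COL6A2, COL22A1 and COL12A1 (among all genes 0.723% rose by that much). At this fold and an adjusted p under 0.05, 157 of all genes tested rose and 105 fell with edgeR. The study reports far fewer changed genes at the same cutoffs, over a different number of expressed genes. Its text names DESeq2 and a figure legend names limma. The reason for the difference was not tested. The methods of the study name a larger log2 fold change as the condition, which none of the 7 met. No fall met the condition of 1.2 (0.483% of all genes did), since COL8A1 and LAMA5 lay at -0.15 and -0.14. DESeq2 passed 6 of the 7, all but LAMA5, and limma voom passed all 7, and neither tool passed any other of these genes. The median log2 fold change was 0.02 over the 50 genes and -0.004 over all genes tested.

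Expression level bears on these counts. Genes of at least 1000 mean normalized counts number 6787, of which 5.88% passed the test, 4.16% as rises and 1.72% as falls. Among the collagens and laminins 16 reached that level and 6 of them passed (37.5%), with 4 rises and 2 falls. Of the 11 with a mean between 100 and 1000, only COL22A1 passed, and of the 23 below 100 none did with edgeR, where 1 gene, COL4A6, had an unadjusted p under 0.05. The samples of the 2 conditions did not overlap for 11 of the 50 genes (22.0%), beside 19.3% of all genes tested, so that this count is near the background. Among the 16 abundant members the corresponding numbers were 7 genes, 43.8% and 26.3%. An unadjusted p under 0.05 was found for 14 of the 50 genes, beside 14.8% of all genes tested, and for 11 of the 16 abundant ones (68.8%), beside 21.8% of genes at that level.

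**Figure D1:**
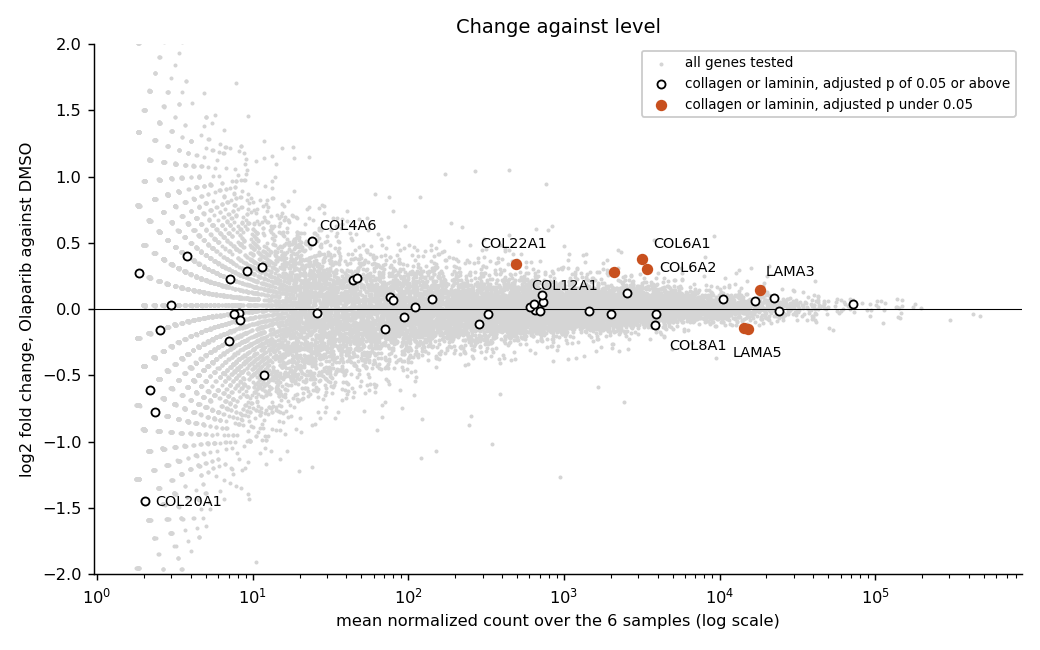
Log2 fold change of Olaparib against DMSO (y axis, drawn from -2 to 2) against the mean normalized count over the 6 samples (x axis, log scale); grey points are all genes tested, open circles the collagens and laminins that did not pass and filled circles the 7 that did. The 7 filled circles lie at means of 492 and above and within 0.4 of 0, and the wide scatter of open circles is at low counts.

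The alpha-1 and alpha-2 chains of type VI collagen had the clearest rises. COL6A1 had 3685, 3697 and 3416 normalized counts after Olaparib, compared with 2780, 2726 and 2799 after DMSO. Every Olaparib sample lay above every DMSO sample, a gap larger than the SD of either group (159 and 38.0). The log2 fold change was 0.38 (SE 0.04, 95% interval 0.30 to 0.45, edgeR adjusted p = 5.7e-08), a rise of 30.0% in the mean. COL6A2 had 3674, 3935 and 3692 normalized counts with Olaparib and 3081, 3075 and 2999 after DMSO. Its groups also stood apart, with a log2 fold change of 0.30 (SE 0.04, 95% interval 0.23 to 0.38, adjusted p = 1.8e-06). Both held under all alternatives tried and whichever sample was left out. The ratio of COL6A1 to COL6A2 counts within a sample was 1.00, 0.940 and 0.925 after Olaparib and 0.902, 0.886 and 0.933 after DMSO, so that the ranges overlapped.

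The usual partner of these chains is the large alpha-3 chain, COL6A3, which the same microfibrils contain. COL6A3 was nearly undetected, with 8, 10 and 6 counts after Olaparib and 7, 8 and 11 after DMSO (log2 fold change -0.08, SE 0.41). A change of the size seen in COL6A1 was not detectable at this depth. Per kb of exons the DMSO level was 0.396 normalized counts for COL6A3, 500.1 for COL6A1 and 572 for COL6A2. Of the alternative chains, COL6A6 had 14 counts in total, and COL6A5 had 2, 3 and 1 counts after Olaparib and 0 in each DMSO sample, which is below the filter. COL6A1 and COL6A2 are neighbours on chromosome 21, with COL6A1 at chr21:45981770-46005050 and COL6A2 at chr21:46098112-46132848 on GRCh38. They lie on the same strand with 93061 bp between them and no other tested gene in the gap. COL18A1, which codes for the basement membrane collagen that carries endostatin, ends 468049 bp before COL6A1 and did not pass (log2 fold change -0.04, adjusted p = 0.708).

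The promoter of COL6A2, chr21:46097862-46098111 on the plus strand of GRCh38 (RefSeq), is shown because the gene rose together with its neighbour. Capitals mark the TATA box letters (TATAAA) and GC box letters (GGGCGG, or CCGCCC when read on the other strand).
COL6A2: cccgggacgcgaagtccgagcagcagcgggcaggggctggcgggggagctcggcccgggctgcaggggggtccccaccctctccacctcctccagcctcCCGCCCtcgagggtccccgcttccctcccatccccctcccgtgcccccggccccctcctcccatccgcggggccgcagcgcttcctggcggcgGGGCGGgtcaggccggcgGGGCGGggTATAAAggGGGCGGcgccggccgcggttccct
The TATAAA match begins 32 bases before the start, and 4 GC box matches surround it. Among 35116 promoter windows of RefSeq, searched on both strands, 10.7% hold TATAAA and 42.6% a GC box. Of the 56 collagen and laminin genes 15, COL6A1 among them, had no window and were not searched. The other 41 genes had 55 windows in all. TATAAA was in 8 of these windows (7 genes) and a GC box in 32 (27 genes). A match describes letters and is no sign that a factor binds there.

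**Figure D2:**
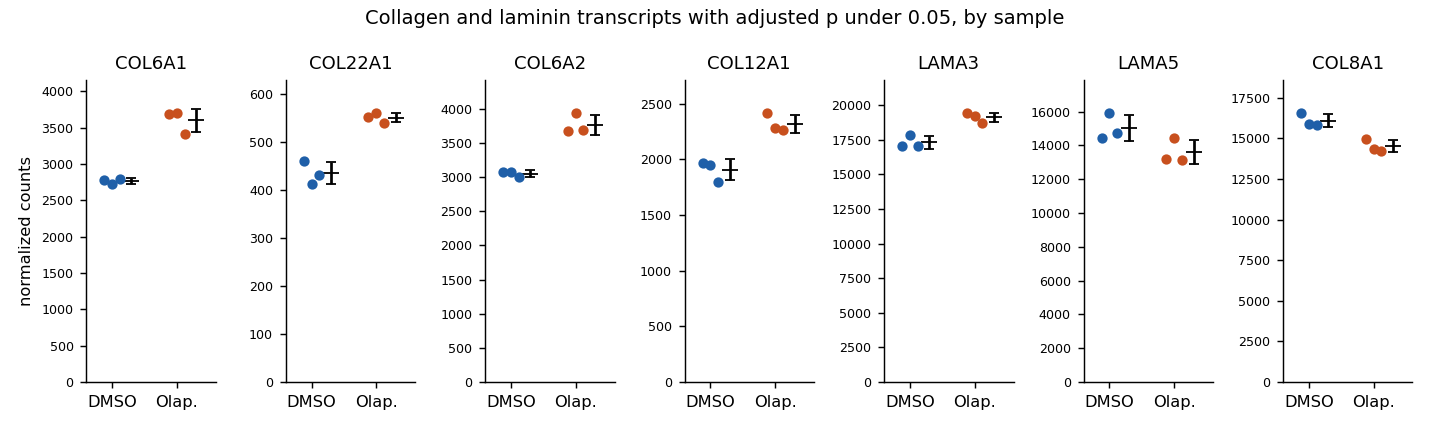
Normalized counts of the 7 genes that passed the test, for each DMSO (blue) and Olaparib (orange) sample, with the mean and SD of 3 samples in black; each y axis starts at 0. The groups do not overlap in any panel, and for LAMA5 the lowest DMSO sample (14416) is only just above the highest Olaparib sample (14408).

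The FACIT collagens decorate fibrils, and 9 of the 10 members were tested. Of these, 2 rose, none fell and 7 did not pass, where 2.15% of all genes tested rose and 1.21% fell. COL12A1, the large FACIT chain known from dense connective tissue, had 2413, 2280 and 2260 normalized counts with Olaparib and 1971, 1949 and 1798 after DMSO. Its log2 fold change was 0.28 (SE 0.04, adjusted p = 5.8e-05) and the groups were separate. COL22A1, a FACIT member known from tissue junctions such as those of muscle and tendon, had 552, 559 and 540 normalized counts with Olaparib and 459, 413 and 431 after DMSO. Its log2 fold change was 0.34 (SE 0.06, adjusted p = 2.0e-04), and all Olaparib samples were higher. Both kept an adjusted p of at most 0.0076 whichever sample was left out. COL16A1 had 687 to 762 normalized counts and a log2 fold change of 0.05 (SE 0.05). The other 6 tested members (COL9A2, COL9A3, COL14A1, COL19A1, COL20A1 and COL21A1) had means between 2.03 and 111 normalized counts and log2 fold changes from -1.45 to 0.22. The low end is COL20A1, with 12 counts in all, and COL9A1 had 10 counts and was not tested.

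Type IV collagen, the network collagen of basement membranes, had 6 tested chains. None passed in edgeR, and COL4A1, COL4A2 and COL4A6 had an unadjusted p under 0.05. COL4A1 and COL4A2 code for the chains found in nearly all basement membranes. COL4A1 had 11033, 11062 and 10251 normalized counts with Olaparib and 10479, 10285 and 9976 after DMSO. The ranges overlapped, and the log2 fold change was 0.07 (SE 0.03, adjusted p = 0.234). COL4A2 had 17338, 17542 and 16490 against 16684, 16278 and 16397 normalized counts, with a log2 fold change of 0.06 (SE 0.03, 95% interval 0.002 to 0.11, adjusted p = 0.336). The ratio of COL4A1 to COL4A2 counts stayed between 0.608 and 0.636 over the 6 samples.

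COL4A1 and COL4A2 lie head to head on chromosome 13 and are transcribed away from a shared region. The stretch shown, chr13:110307158-110307257 of GRCh38 in the direction of COL4A2, runs from the first base upstream of COL4A1 to the nearest annotated exon at the main start of COL4A2. Capitals mark CCAAT and the GC box.
COL4A1 and COL4A2: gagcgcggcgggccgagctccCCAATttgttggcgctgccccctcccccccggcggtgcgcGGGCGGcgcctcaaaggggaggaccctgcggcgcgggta
CCAAT is found in 32.0% of all RefSeq promoter windows and in 14 of the 55 windows of collagen and laminin genes. These lie in 13 of the 41 genes with a window. CCAAT and the GC box are the letters marked above. Each occurs once in this stretch, which is 78.0% G and C.

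The tissue-restricted type IV chains were lower, at 2.14 to 59.5 normalized counts per kb of exons after DMSO, compared with 699 for COL4A1. COL4A3 had 618, 613 and 585 normalized counts with Olaparib and 640, 562 and 601 after DMSO, and 6.82% of its exonic length overlaps exons of another gene. COL4A4, which is transcribed from the same bidirectional start region, had 708, 642 and 598 against 635, 675 and 593. COL4A5 had 728, 700 and 671 against 747, 686 and 686. For these 3 chains the ranges overlapped and the log2 fold changes lay between -0.01 and 0.03. COL4A6, head to head with COL4A5 on the X chromosome, had 28.3, 28.7 and 27.8 normalized counts with Olaparib and 23.0, 15.7 and 20.9 after DMSO. Its samples did not overlap, yet the change missed the test at this depth (log2 fold change 0.51, SE 0.24, adjusted p = 0.298).

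COL8A1, a short-chain collagen that builds hexagonal networks in vessels and in the membrane under the corneal endothelium, was the only collagen that fell. It had 14951, 14378 and 14239 normalized counts after Olaparib, compared with 16550, 15902 and 15807 after DMSO. The groups were separate and the log2 fold change was -0.15 (SE 0.03, 95% interval -0.20 to -0.09, adjusted p = 0.00142). The mean fell by 9.71%. Its partner chain COL8A2 had a mean of only 11.5 normalized counts, with 11.9 to 13.3 after Olaparib and 8.83 to 11.5 after DMSO, and did not pass (log2 fold change 0.32, SE 0.34). COL10A1, the hypertrophic cartilage collagen of the same group, had 2 counts in total.

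None of the 9 tested fibril-forming collagens passed in edgeR, and 1 of them, COL27A1, had an unadjusted p under 0.05. COL1A2, the alpha-2 chain of type I collagen, had 1427, 1508 and 1407 normalized counts with Olaparib and 1405, 1527 and 1452 after DMSO. COL1A1, which supplies the other chain of type I, had 255, 336 and 236 against 302, 312 and 278. Both pairs of ranges overlapped, with log2 fold changes of -0.01 (SE 0.04) and -0.11 (SE 0.09). Per kb of exons, the DMSO level was 33.0 normalized counts for COL1A1 and 135 for COL1A2. Type I collagen is usually built with more alpha-1 than alpha-2 chains. COL5A2, a regulator of fibril width, had 167, 144 and 123 normalized counts with Olaparib and 148, 144 and 119 after DMSO, while its partners COL5A1 and COL5A3 had 6 and 15 counts in total. COL3A1 had 2 counts in the 6 libraries. COL27A1, a fibrillar chain of cartilage, had 736, 788 and 734 normalized counts against 720, 688 and 685, without overlap and without passing (log2 fold change 0.11, SE 0.05, adjusted p = 0.284). The remaining 4 tested chains (COL2A1, COL11A1, COL11A2 and COL24A1) had means under 15 normalized counts.

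The other collagen groups held no gene that passed in edgeR, and 0 had an unadjusted p under 0.05. COL18A1 had 3867, 4043 and 3728 normalized counts with Olaparib and 4035, 3942 and 3964 after DMSO, and 18.5% of its exonic length overlaps another annotated gene, all of it on the opposite strand. The library kit keeps the strand, so reads of that gene are included only if the counting ignored strand, which is not stated. COL15A1, the other member of the endostatin-bearing group, had 11 counts in total. COL7A1, which forms the anchoring fibrils under stratified epithelia, had 608 to 678 after Olaparib and 617 to 722 after DMSO. Of the transmembrane collagens COL13A1 had a mean of 324 normalized counts, COL17A1 and COL25A1 were under 60 in every sample, and COL23A1 had 3 counts in total. COL26A1 and COL28A1 had means of 79.6 and 7.17. At the edge of the filter, COL9A1 with 10 counts was left out and COL15A1 with 11 was kept.

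**Figure D3:**
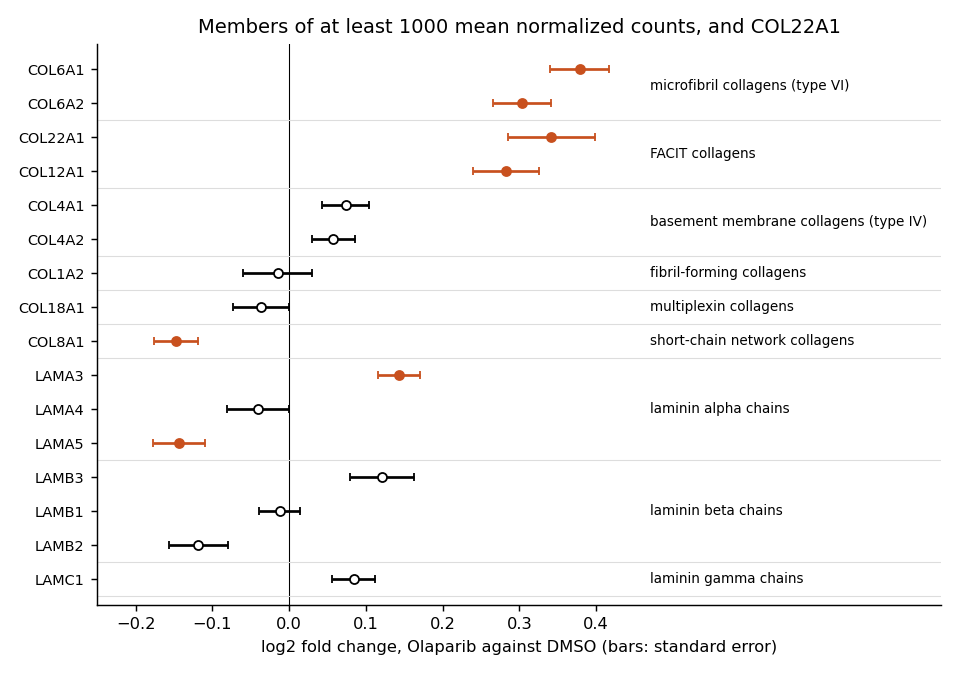
Log2 fold change of Olaparib against DMSO with its standard error for 15 collagens and laminins of at least 1000 mean normalized counts and for COL22A1, ordered by role; filled orange points passed the test. The type VI and FACIT chains lie between 0.28 and 0.38, COL8A1 and LAMA5 near -0.15, and LAMA3 at 0.14.

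Of the 5 laminin alpha chains, which carry the integrin-binding domains, 1 rose, 1 fell and 3 did not pass. Over all genes tested 2.15% rose and 1.21% fell. For genes of at least 1000 mean normalized counts these shares were 4.16% and 1.72%. LAMA3 rose, with 19423, 19215 and 18735 normalized counts with Olaparib and 17058, 17850 and 17047 after DMSO. All Olaparib samples were higher, and the log2 fold change was 0.14 (SE 0.03, 95% interval 0.09 to 0.20, adjusted p = 0.00152). LAMA5 fell, with 13208, 14408 and 13152 normalized counts after Olaparib against 14416, 15893 and 14728 after DMSO. The groups touched, since the highest Olaparib and the lowest DMSO sample were 14408 and 14416. The log2 fold change was -0.14 (SE 0.03, 95% interval -0.21 to -0.08, adjusted p = 0.0106). This call depended on the test and on single samples. The adjusted p was 0.213 with DESeq2, 0.0589 without Olaparib replicate 1, 0.101 without Olaparib replicate 3 and 0.190 without DMSO replicate 2.

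LAMA4, the alpha chain of laminin-411, is known from vessel walls. It had 2028, 1939 and 1959 normalized counts with Olaparib and 2058, 2039 and 2001 after DMSO, with a log2 fold change of -0.04 (SE 0.04, adjusted p = 0.711). LAMA1, the embryonic alpha chain, and LAMA2, the alpha chain of muscle, had means of 93.6 and 76.7 normalized counts and log2 fold changes of -0.06 and 0.09.

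The ratio of LAMA3 to LAMA5 counts within each sample was 1.47, 1.33 and 1.42 after Olaparib and 1.18, 1.12 and 1.16 after DMSO. The ranges did not overlap, and the mean ratio was 22.1% higher after Olaparib. Each chain alone was already separate, in opposite directions, so a ratio without overlap follows from this and adds no evidence. These ratios of chains are descriptions of the same counts, with no test of their own. With 3 samples a side, the smallest two-sided p of an exact permutation test is 0.1.

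Upstream sequences of LAMA3 and LAMA5, and of LAMB3 from the LAMA3 trimer, are shown for the letters they hold. They come from RefSeq on GRCh38, and capitals mark AP-1 letters (TGANTCA), GC boxes and CCAAT, each on either strand. LAMA3 is chr18:23872770-23873019 on the plus strand, before the RefSeq start that lies inside the longer LAMA3 gene model. LAMB3 is chr1:209651395-209651624 on the minus strand, before the last of the 3 RefSeq starts of that gene and ending at an annotated exon. LAMA5 is chr20:62367313-62367562 on the minus strand.
LAMA3: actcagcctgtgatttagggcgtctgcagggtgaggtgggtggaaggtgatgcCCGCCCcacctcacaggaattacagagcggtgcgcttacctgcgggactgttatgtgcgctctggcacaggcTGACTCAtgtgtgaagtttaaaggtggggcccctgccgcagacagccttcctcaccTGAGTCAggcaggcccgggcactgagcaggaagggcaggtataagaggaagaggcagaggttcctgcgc
LAMB3: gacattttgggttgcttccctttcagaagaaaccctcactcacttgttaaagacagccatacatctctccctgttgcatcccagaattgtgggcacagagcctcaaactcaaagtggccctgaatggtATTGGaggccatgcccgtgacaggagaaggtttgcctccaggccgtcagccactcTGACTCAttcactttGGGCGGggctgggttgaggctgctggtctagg
LAMA5: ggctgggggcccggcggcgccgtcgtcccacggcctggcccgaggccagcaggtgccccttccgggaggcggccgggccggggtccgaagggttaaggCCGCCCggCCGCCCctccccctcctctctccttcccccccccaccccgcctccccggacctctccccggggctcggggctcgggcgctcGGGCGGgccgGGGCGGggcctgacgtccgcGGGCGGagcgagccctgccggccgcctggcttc
LAMA3 holds 2 AP-1 matches, which begin 125 and 69 bases before its start, and LAMB3 holds 1, which begins 67 bases before its start. The LAMA5 window has none and holds 5 GC boxes, in a sequence that is 82.8% G and C, whereas the median over all windows is 58.0%. AP-1 letters occur in 6.57% of all 35116 windows, and besides LAMA3 and LAMB3 the only collagen or laminin gene with a match was COL10A1. The LAMB3 window printed was chosen out of 3 after its match was seen, and LAMB3 itself did not pass the test. Counts per gene do not tell which start was used, and the part of these letters in the changes was not tested.

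None of the 4 beta chains passed in edgeR, and LAMB2 and LAMB3 had an unadjusted p under 0.05. LAMB3, the beta chain of laminin-332, had 2611, 2807 and 2523 normalized counts with Olaparib and 2433, 2480 and 2392 after DMSO. The samples did not overlap, with a log2 fold change of 0.12 (SE 0.04, adjusted p = 0.116). LAMB1, the beta chain of laminin-411 and laminin-511, had 24463, 24075 and 23362 against 23782, 24630 and 24117 normalized counts and a log2 fold change of -0.01 (SE 0.03). LAMB2, which replaces LAMB1 in laminin-521, had 3635, 3867 and 3626 against 3825, 4200 and 4054. Its ranges overlapped through the second Olaparib sample, and its log2 fold change was -0.12 (SE 0.04, adjusted p = 0.0871). The ratio of LAMB2 to LAMB1 was 0.149, 0.161 and 0.155 after Olaparib and 0.161, 0.171 and 0.168 after DMSO, with the highest Olaparib value just under the lowest DMSO value. LAMB4 had a mean of 7.56 normalized counts.

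Of the gamma chains, LAMC1 and LAMC3 did not pass in edgeR, and LAMC1 had an unadjusted p under 0.05. LAMC1, the common gamma chain, had 23757, 23348 and 22375 against 21681, 22473 and 21387 normalized counts. The lowest Olaparib sample lay below the highest DMSO sample, and the log2 fold change was 0.08 (SE 0.03, adjusted p = 0.106). LAMC3 had a mean of 9.14 normalized counts.

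Set side by side, LAMA3 and LAMB3 of laminin-332 had log2 fold changes of 0.14 and 0.12, of which the first passed. For laminin-511 they were -0.14 (LAMA5), -0.01 (LAMB1) and 0.08 (LAMC1), again with the alpha chain alone past the test. The ratio of LAMA5 to LAMC1 counts was 0.556 to 0.617 after Olaparib and 0.665 to 0.707 after DMSO. LAMB1 and LAMA4, which did not pass, were also lower against LAMC1 in every Olaparib sample. These ratios share LAMC1 as denominator, whose log2 fold change was 0.08, beside -0.01 for LAMB1 and -0.04 for LAMA4. Counts of LAMB1 and LAMA4 themselves overlapped between the groups, so the lower ratios do not show a fall of these chains. The ratio of LAMB1 to LAMC1 was 1.030 to 1.044 after Olaparib and 1.096 to 1.128 after DMSO. For LAMA4 to LAMC1 it was 0.0830 to 0.0876 and 0.0907 to 0.0949. The ratio of LAMA3 to LAMB3 counts overlapped, at 6.84 to 7.44 after Olaparib and 7.01 to 7.20 after DMSO.

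**Figure D4:**
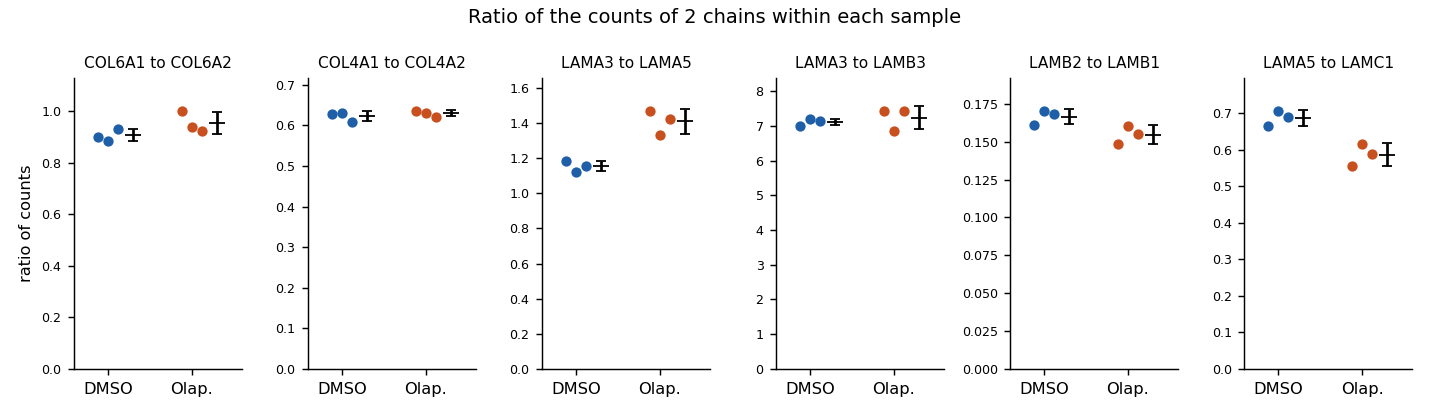
Ratio of the counts of 2 chains within each DMSO (blue) and Olaparib (orange) sample, with the mean and SD of 3 samples in black and each y axis starting at 0. The ratio of LAMA3 to LAMA5 is higher in all Olaparib samples, which follows from the separate groups of both chains. LAMA5 to LAMC1 and LAMB2 to LAMB1 are lower in all Olaparib samples, and the other 3 ratios overlap.

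Chains can be compared with each other only per length. After DMSO, LAMA3 had 1195 ± 31.8 normalized counts per kb of exons (SD, n = 3), compared with 524 ± 9.49 for LAMB3, its partner in laminin-332. LAMC1 had 2587 ± 66.5, LAMB1 1300 ± 23.0, LAMA5 1050 ± 54.5 and LAMB2 586 ± 27.5 per kb. Among collagens COL8A1 had 1710 ± 43.0, COL4A2 854 ± 10.8, COL4A1 699 ± 17.3 and COL18A1 470 ± 5.75 per kb. COL1A2 had 135 ± 5.67 and COL12A1 101 ± 4.99. The order depends on the length used. With the canonical transcript in place of all annotated exons, LAMB1 had 4279 per kb and stood above LAMC1 at 2755, and COL4A2 had 2552 and COL8A1 2917. The transcript models behind the counts may differ from GENCODE release 44, so only differences of several-fold between chains are interpretable here.

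Genes that make, process, accompany or bind these proteins were taken from 4 lists, with 62 of 63 genes tested and ADAMTS2 at 0 counts. The lists were written with earlier results of these data known, so their counts beside the shares of all genes are descriptions only. In all 7 rose and 2 fell, beside 2.15% and 1.21% of all genes tested. For genes of at least 1000 mean normalized counts these shares were 4.16% and 1.72%. DESeq2 and limma voom each passed 8 of the 9 partner genes, all but LOX, and no other. Of 21 genes for folding and modification in the endoplasmic reticulum, P4HA2, a prolyl hydroxylase subunit, rose (1183, 1320 and 1333 against 1019, 1106 and 1116 normalized counts, log2 fold change 0.24, SE 0.05, edgeR adjusted p = 0.00268). SERPINH1, the collagen chaperone HSP47, fell (11270, 11897 and 11563 against 12304, 12566 and 12822, log2 fold change -0.12, SE 0.03, adjusted p = 0.0135). The other 19 did not pass, among them P4HB, PLOD1, PLOD2 and PLOD3.

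Of 13 tested genes for processing and crosslinking outside the cell, 4 rose and none fell, where 2.15% of all genes tested rose and 1.21% fell. ADAMTS14, a procollagen N-propeptidase, had 380, 403 and 310 normalized counts against 253, 280 and 264 (log2 fold change 0.45, SE 0.08, adjusted p = 5.1e-04). PCOLCE2, an enhancer of procollagen C-propeptide cleavage, had 495, 498 and 510 against 400, 421 and 436 (log2 fold change 0.26, SE 0.06, adjusted p = 0.00701). The lysyl oxidases LOXL4 and LOX, which crosslink collagen, had log2 fold changes of 0.16 (adjusted p = 0.025) and 0.18 (adjusted p = 0.0482). LOX lost its call in most other settings, with an adjusted p of 0.191 under DESeq2. In the whole list the median log2 fold change was 0.12.

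None of the 12 basement membrane partners passed in edgeR, and 3, NID2 and TINAGL1 among them, had an unadjusted p under 0.05. FN1, HSPG2, AGRN and NID1 were not among these, and the list's median log2 fold change was 0.01. Of 16 receptors 2 rose and 1 fell, beside 2.15% and 1.21% of all genes tested. Among genes of at least 1000 mean normalized counts, 4.16% rose and 1.72% fell. ITGA2, the alpha subunit of a collagen-binding integrin, had 6578, 5934 and 5920 normalized counts against 5440, 5293 and 5137 (log2 fold change 0.22, SE 0.04, adjusted p = 2.2e-04). CD44, a hyaluronan receptor that also binds collagen, rose by 0.13 on the log2 scale (adjusted p = 0.0201). ITGA3, the alpha subunit of the integrin that binds laminin-332 and laminin-511, fell (17026, 17816 and 16913 against 18332, 18909 and 18915, log2 fold change -0.12, SE 0.03, adjusted p = 0.0109). ITGA6 and ITGB4, which pair in the hemidesmosome receptor of laminin-332, had log2 fold changes of 0.11 (adjusted p = 0.0626) and -0.01. SERPINH1, LOXL4, ITGA3 and CD44 each lost their call in at least 3 of the 6 fits that left out a sample, while ADAMTS14 and ITGA2 kept theirs in all 6. P4HA2 and PCOLCE2 lost theirs only without DMSO replicate 1 (adjusted p = 0.0537 and 0.067).

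**Figure D5:**
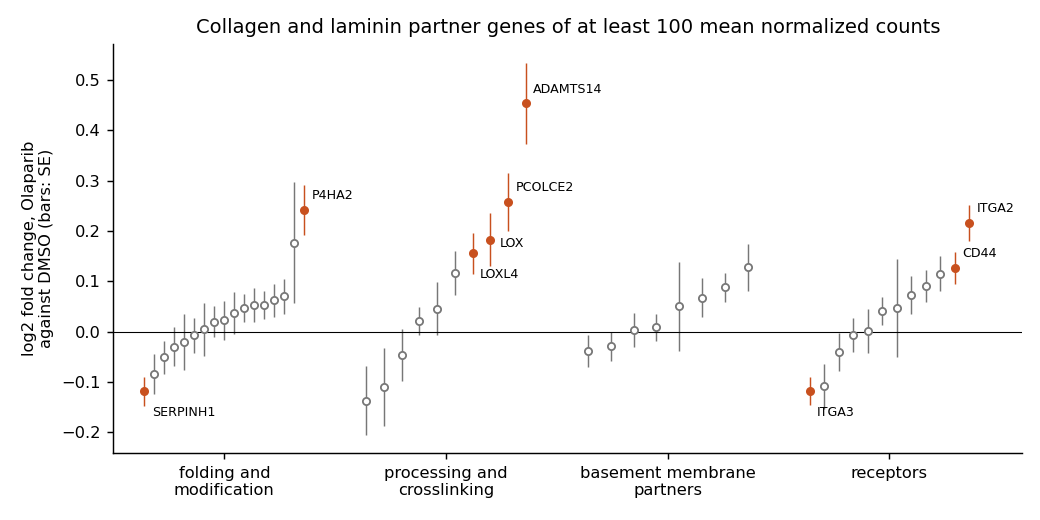
Log2 fold change of Olaparib against DMSO with its standard error for the 47 partner genes of at least 100 mean normalized counts, by list and in rising order within a list; filled orange points passed the test. The 4 rises in processing and crosslinking lie between 0.16 and 0.45, and no basement membrane partner is filled.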

How the data were processed

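RNA was measured in 6 samples of UWB1.289, 3 after Olaparib and 3 after DMSO, from stranded poly(A) libraries made from 500 ng of total RNA by the labels (the methods of the paper give a larger amount). The authors deposited whole-number read counts per gene, without normalization. Per the submitters' processing notes and the paper's methods, reads were mapped to hg38 with STAR and counted with featureCounts. The strand setting and the removal of duplicates are not given in the sources used here. GENCODE release 44 holds 81.9% of the identifiers in the counts and 96.0% of the tested ones, so the gene models counted may differ from those used here for symbols, coordinates and lengths.

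Genes with more than 10 counts in total were normalized by TMM and tested with edgeR 4.0.16 (R 4.3.3), with Benjamini-Hochberg adjustment over all 21729 genes. Normalized counts are counts divided by the effective library size, times its mean over samples. DESeq2 1.42.0, limma voom (limma 3.58.1), other normalizations and filters, a replicate block and leaving out each sample were alternatives. The script was tested on simulated data. Intervals of log2 fold changes reflect the spread of these samples only. Replicates of a condition differed by more than sampling noise.

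The genes and lists were chosen with earlier results of these data known. Values per sample are given for members that passed, those of at least 1000 mean normalized counts and their partner chains, and the other members by range. COL8A2, COL16A1, COL20A1, COL27A1, COL7A1 and the partner genes that did not pass were named after their values were seen. Promoter windows are from RefSeq on GRCh38, trimmed where an annotated exon began. Certain genes that count in the totals are not reported here by name.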

Additional observations from a re-analysis of the deposited data

How the results depend on the processing

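Of 419 values of single genes recomputed under an alternative, 368 kept their direction and their side of the threshold, 37 lost the threshold, 8 gained it and 6 turned in sign (these cover 30 genes, not every member). COL6A1, COL6A2, COL12A1, COL22A1, LAMA3 and COL8A1 passed in all 14 other settings. The number of collagens and laminins that fell was 2, and 1 with DESeq2, where LAMA5 was lost, and it ranged from 1 to 3 when a sample was left out. The number that rose was 5 to 5 in those fits. At a fold condition of 1.5 the rises went from 4 to 0, and at 1.1 the falls went from 0 to 2. Leaving out a sample gave 3 to 4 rises past the condition of 1.2. For the 4 partner lists, leaving out a sample gave 4 to 6 rises (7 with all samples) and 0 to 2 falls. The median log2 fold change of the members ranged from -0.023 to 0.050 when a sample was left out (0.023 with all), with the low end without Olaparib replicate 1. Over the fits that left out a sample, 18 of the 50 tested collagens and laminins took both signs, and none of the 7 that had passed was among them. Of the members given by sample for their level or their trimer and recomputed under each alternative, COL1A2 ranged from -0.045 to 0.018 (above 0 without Olaparib replicate 3 or DMSO replicate 2), LAMB1 from -0.026 to 0.0037 (above 0 in the same fits) and COL6A3 from -0.28 to 0.094 (above 0 without Olaparib replicate 3 or DMSO replicate 3). LAMB2 passed without Olaparib replicate 2 (adjusted p = 0.0484), without DMSO replicate 1 (0.0207) and with no filter (0.0495), where LAMC1 also passed (0.040). The cause was not tested.

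Whether the replicate numbers pair the samples is not stated in the labels. Deviations of same-numbered samples from their group means correlated at -0.0791, 0.105 and -0.104. With 3 samples per group such values cannot exclude a pairing. With a replicate block, 8 members rose and 3 fell: LAMC1, LAMB3 and COL4A1 were added to the rises and LAMB2 to the falls. The length column planned as an alternative gene length was not run, since the counts carry no lengths, and the canonical transcript length was added after seeing the data. Genes with few counts, such as COL6A3, had standard errors above 0.4 on the log2 scale, which limits what could be detected there.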
